A study of Mus musculus with 2 samples.

Results

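The 10 genes described here encode the core of transforming growth factor beta (TGF-beta) signalling in the mouse: the ligands Tgfb1, Tgfb2 and Tgfb3, the receptors Tgfbr1 and Tgfbr2, the receptor-activated SMADs Smad2 and Smad3, the common SMAD Smad4, and the inhibitory SMADs Smad6 and Smad7. The members are the regions that CUT&Tag for the phosphatase PHLPP1 gave over these genes, taken as every deposited region sharing at least 1 bp with a RefSeq gene span or the 10 kb on either side of it. There were 211 such regions of 392444 in all, 141 of 226476 in the IL-4 library and 70 of 165968 in the untreated library. Both libraries were made from wild-type mouse alveolar macrophages recovered by bronchoalveolar lavage. One had received 20 ng/ml of the cytokine interleukin-4, called IL-4 below, over 4 h, and the other was left untreated. Each group held 1 library, so no test between them could be made, and the labels give neither strain nor age nor whether animals were pooled. The labels enter wild type only in the protocol text. In CUT&Tag an antibody bound in permeabilised cells directs a transposase that cuts and tags the DNA around it; no library with a control antibody was analysed here.

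TGF-beta ligands are secreted in a latent form and bind a type II receptor, which recruits and phosphorylates a type I receptor. The type I receptor phosphorylates SMAD2 and SMAD3, which join SMAD4 and act on genes in the nucleus, while SMAD6 and SMAD7 inhibit the pathway and are themselves induced by signals of the family. Alveolar macrophages depend on TGF-beta, which they also make themselves, for their development and upkeep in the mouse lung.

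The number of sequenced fragments is not known. A constant background of 15.9 fragments in the IL-4 library and 13.9 in the untreated library, a ratio of 1.14, was recovered from the deposited fold and p. Fold enrichment below is the authors' own value for each region, the pileup of fragments at its summit over the background of the same library with 1 added to both, and has no scaling from one library to the other. Regions lay within 1 kb of an end at 14 of 15 marker genes of alveolar macrophages in both libraries, the exception being Chil3. They also lay so at 9 of 10 markers of lung epithelium, 7 of 10 of lymphocytes and 6 of 10 of granulocytes in the IL-4 library, and at 5, 2 and 3 of these same lists in the untreated library. Of all protein-coding genes, 70.4% were marked so in the IL-4 library and 57.5% in the untreated library. A region at a gene is no measure of its expression, and the part of other cells in the results was not tested.

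RefSeq start-site sequences (GRCm38.p6) were at hand for 6 of the genes, Tgfb1, Tgfb2, Tgfbr1, Tgfbr2, Smad3 and Smad6. They are shown because they differ in how regions lay over them. The window at the first start of Tgfbr1 carried the strongest region of all 10 genes. Those of Tgfb1, Tgfbr2 and Smad6 also lay under regions of both libraries. That of Smad3 lay under a region of the IL-4 library alone, and that of Tgfb2 under none. The Tgfb2 start used here lies inside the gene span and not at its upper-coordinate end, where the gene begins. Each run below goes 5′ to 3′ on the strand of the gene, from 250 bases before the start to 10 bases after it. Capitals mark letters of the motifs searched, described with the motif counts.
Tgfbr1 (chr4:47352972-47353231, plus strand): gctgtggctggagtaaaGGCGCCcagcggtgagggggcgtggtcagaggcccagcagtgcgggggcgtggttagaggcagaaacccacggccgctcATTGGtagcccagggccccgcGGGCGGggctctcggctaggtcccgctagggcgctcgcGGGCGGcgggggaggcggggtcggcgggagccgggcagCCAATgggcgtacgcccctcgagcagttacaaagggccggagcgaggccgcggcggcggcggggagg
Tgfbr1, second start (chr4:47385966-47386225, plus strand): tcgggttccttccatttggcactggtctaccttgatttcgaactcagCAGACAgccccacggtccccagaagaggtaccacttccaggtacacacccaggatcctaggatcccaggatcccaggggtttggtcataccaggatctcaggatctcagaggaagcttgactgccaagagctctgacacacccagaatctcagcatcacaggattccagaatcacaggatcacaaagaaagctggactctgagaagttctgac
Tgfb1 (chr7:25686752-25687011, plus strand): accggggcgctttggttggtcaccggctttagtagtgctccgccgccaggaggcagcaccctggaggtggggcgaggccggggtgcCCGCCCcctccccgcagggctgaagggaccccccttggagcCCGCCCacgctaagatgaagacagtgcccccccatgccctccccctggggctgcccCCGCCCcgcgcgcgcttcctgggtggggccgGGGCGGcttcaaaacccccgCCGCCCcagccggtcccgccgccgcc
Tgfbr2 (chr9:116175354-116175613, minus strand): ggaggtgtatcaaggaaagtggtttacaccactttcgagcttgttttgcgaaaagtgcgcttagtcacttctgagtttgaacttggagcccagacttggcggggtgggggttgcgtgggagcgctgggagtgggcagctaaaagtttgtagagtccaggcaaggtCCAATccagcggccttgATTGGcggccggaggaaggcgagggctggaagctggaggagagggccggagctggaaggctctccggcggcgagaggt
Smad6 (chr9:64022050-64022309, minus strand): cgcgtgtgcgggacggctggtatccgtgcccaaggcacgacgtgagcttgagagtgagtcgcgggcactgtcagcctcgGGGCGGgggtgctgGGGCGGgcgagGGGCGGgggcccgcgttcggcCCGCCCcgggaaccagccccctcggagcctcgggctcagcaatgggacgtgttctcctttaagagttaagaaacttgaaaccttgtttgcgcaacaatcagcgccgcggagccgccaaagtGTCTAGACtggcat
Smad3 (chr9:63757985-63758244, minus strand): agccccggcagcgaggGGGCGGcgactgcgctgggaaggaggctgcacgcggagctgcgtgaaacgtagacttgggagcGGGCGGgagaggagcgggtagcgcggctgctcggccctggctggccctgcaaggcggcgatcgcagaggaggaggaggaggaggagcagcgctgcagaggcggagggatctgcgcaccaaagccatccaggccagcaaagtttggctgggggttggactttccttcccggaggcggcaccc
Tgfb2 (chr1:186705980-186706239, minus strand): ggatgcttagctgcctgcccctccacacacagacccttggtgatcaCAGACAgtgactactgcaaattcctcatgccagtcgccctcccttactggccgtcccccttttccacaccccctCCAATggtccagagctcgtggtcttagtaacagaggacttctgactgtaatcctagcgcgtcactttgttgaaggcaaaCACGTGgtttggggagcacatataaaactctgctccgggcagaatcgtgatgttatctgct

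Every one of the 10 genes had more regions in the IL-4 library than in the untreated library, as did 68.8% of the 21883 protein-coding genes treated alike. The 141 IL-4 and 70 untreated regions gave a ratio of 2.01 (95% interval 1.51 to 2.68, counting error only). The same ratio was 1.51 (1.49 to 1.52) over the windows of all protein-coding genes and 1.36 over the whole lists. Among regions of fold 3 or more it was 1.67 over the 10 genes (0.815 to 3.41). It was 2.0 in the windows of protein-coding genes and 1.94 over the whole lists, values which that interval holds. At a −log10 q of at least 5, also the authors' own value, it was 2.79 over the 10 genes (1.65 to 4.71). That interval holds the 2.48 in those windows and the 2.41 over the whole lists. The difference in number was largest at Smad3 and Smad6, at 23 and 14 regions. These 2 genes, neighbours on chromosome 9, held 53 IL-4 regions and 16 untreated regions. The other 8 genes held 88 IL-4 and 54 untreated regions, a ratio of 1.63 (1.16 to 2.29). That interval holds both the value for all protein-coding windows and the 2.01 of all 10 genes. Smad3 and Smad6 were set aside after their values were seen, which by itself lowers the ratio of the rest.

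**Figure D1:**
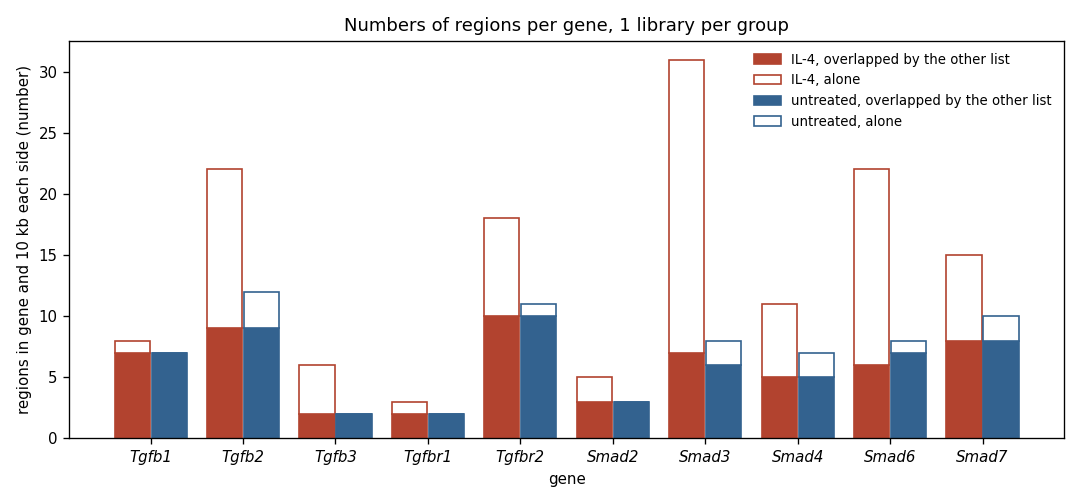
Numbers of PHLPP1 CUT&Tag regions in each gene and the 10 kb on each side (vertical axis, number of regions) for the 10 genes (horizontal axis), with the IL-4 library at the left and the untreated library at the right of each pair and 1 library per group. Filled parts are regions overlapped by the other list and open parts are regions of 1 list alone; Smad3 stands out with 31 IL-4 regions, 24 of them alone, against 8 untreated regions.

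Most of the untreated regions touched an IL-4 region. Of the 70 untreated regions, 59 (84.3%, exact 95% interval 73.6 to 91.9) shared at least 1 bp with an IL-4 region, against 62.9% of the whole untreated list and 68.6% of untreated regions in the windows of protein-coding genes. The share over the 10 genes was 57.1% where at least 50% of each region had to be in common. It was 72.9% with both lists cut to equal length. No share over all regions was counted at these 2 settings. Of the 141 IL-4 regions, 59 (41.8%, 33.6 to 50.4) were overlapped by an untreated region, against 45.6% of the whole IL-4 list and 45.0% in the windows of protein-coding genes. The counts are equal although not all overlaps were 1 to 1, since 1 IL-4 region at Smad6 spanned 2 untreated ones and 2 IL-4 regions in Smad3 touched the same untreated one. Without Smad3 and Smad6, a choice made after seeing the data, the share of IL-4 regions overlapped was 52.3%.

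Regions at gene ends were fewer than those inside genes and had higher median folds. The windows at the ends span far less sequence than the gene bodies, so these counts do not compare densities. At a fold of 3 or more, the IL-4 library had 6 regions at ends, 6 inside genes and 8 in the flanks. The untreated library had 7, 2 and 3. Within 1 kb of an end, the IL-4 library had 13 regions with a median fold of 2.94, and the untreated library 11 with a median of 3.08. Inside the genes, away from the ends, it had 97 regions with a median fold of 2.16, of which 34 were overlapped, while the untreated library had 41 with a median of 2.11, of which 33 were overlapped. The flanks held 31 IL-4 regions (median fold 2.48) and 18 untreated regions (median fold 2.25). All 10 genes had a region at an end in the IL-4 library, as 70.4% of protein-coding genes did, and 9 in the untreated library, as 57.5% did. The exception was Smad3, marked at an end in the IL-4 library alone as were 16.0% of protein-coding genes.

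**Figure D2:**
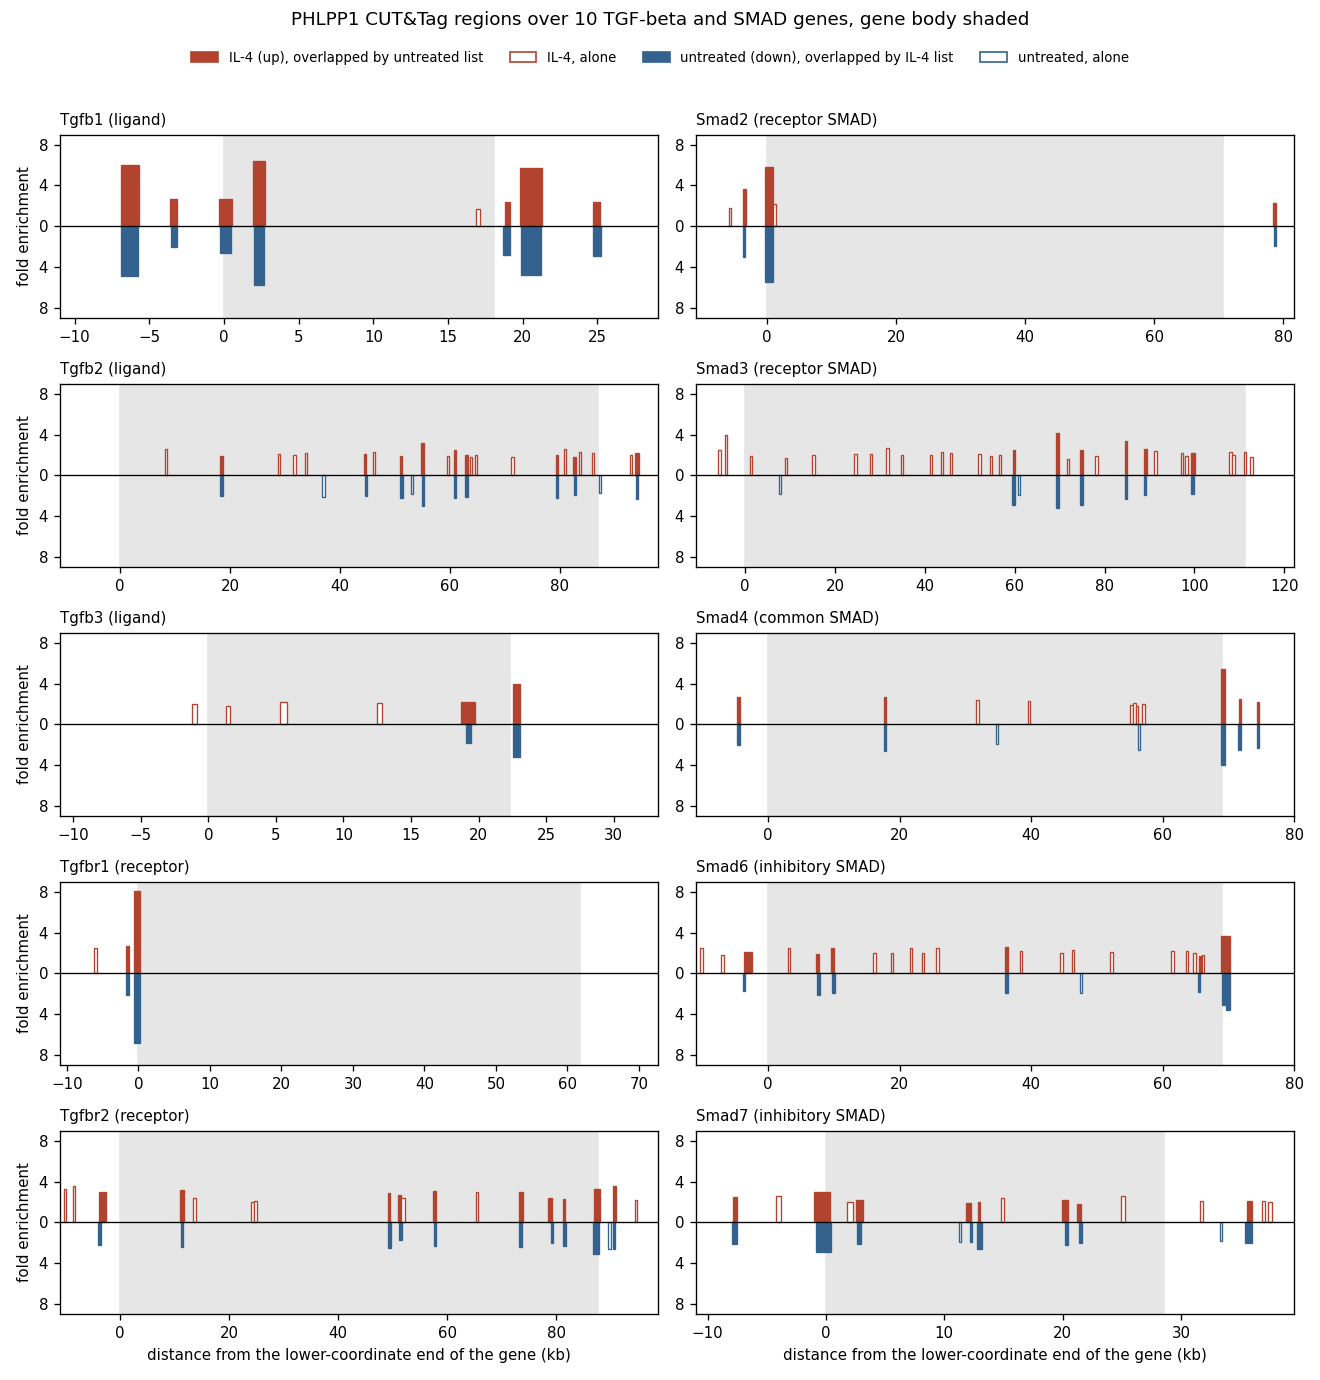
Regions over the 10 genes, plotted by distance from the lower-coordinate end of each gene (horizontal axis, kb) with bar height giving fold enrichment (vertical axis), IL-4 upward and untreated downward, 1 library each. Gene bodies are shaded, filled bars are overlapped by the other list and open bars are not, and narrow regions are drawn wider than they are so that they can be seen. Tgfbr1 and Smad2 have tall bars at 1 end and an almost empty body, and Smad3 and Smad6 have many open IL-4 bars.

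Among the ligands, Tgfb1, the TGF-beta made by most immune cells, had strong regions inside the gene and on both sides. Its gene (chromosome 7, 25687002 to 25705077, mm10) and flanks had 8 IL-4 and 7 untreated regions, and every untreated region was overlapped. The strongest lay inside the gene, 2.38 kb past the start, at 25688911 to 25689756 in the IL-4 library, reaching a fold of 6.35 and a pileup of 168 fragments, and at 25688990 to 25689675 in the untreated library, reaching a fold of 5.73 and a pileup of 96. The start itself had a weaker region, 25686673 to 25687534 with a fold of 2.63 in the IL-4 library and 25686743 to 25687487 with 2.61 in the untreated library, which also lay at an end of B9d2, the next gene. Strong regions lay on both sides too. One with its summit at −6.18 kb from the start was listed at a fold of 5.96 in the IL-4 library and 4.91 in the untreated library and lay at ends of Tmem91 and B9d2. Another lay past the end of the gene. It was 1502 bp wide in the IL-4 library, with its summit 2.75 kb past the end and a fold of 5.67, and 1348 bp wide in the untreated library, with its summit 2.69 kb past the end and a fold of 4.75.

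The local background was also high around Tgfb1, at 21.5 to 44.7 fragments in the IL-4 library and 14.7 to 26.6 in the untreated library. At the region just past the far end of the gene, the IL-4 pileup was 94 over a background of 38.8, a fold of 2.38. The untreated pileup there was 64 over 22.3, a fold of 2.79. Fold and pileup thus ranked the libraries differently at that place. The single Tgfb1 region without an overlap, at 25703893 to 25704133 in the IL-4 library, was weak, with a fold of 1.68.

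Tgfb2 (chromosome 1, 186622787 to 186709697) showed a different pattern, with many weak regions and no strong one. Its window held 22 IL-4 regions with folds of 1.77 to 3.15 and 12 untreated regions with folds of 1.72 to 2.99. Of these, 9 in each library were overlapped. The highest fold in both libraries lay at the same place deep inside the gene, 186677569 to 186678004 in the IL-4 library and 186677661 to 186678031 in the untreated library. At the upper-coordinate end of the RefSeq span the IL-4 library had a region at 186708719 to 186708935 (fold 2.16) and the untreated library another at 186710012 to 186710234 (fold 1.72, −log10 q of 0.794), 1.08 kb apart. The strongest Tgfb2 region of the IL-4 library alone was 186631027 to 186631284, with a fold of 2.61, and the strongest of the untreated library alone had a fold of 2.08. The RefSeq start with a sequence, at 186705989, lies inside the gene span and not at its upper-coordinate end, where this minus-strand gene begins. No region touched the 300-base window around that start, which holds the run printed above. The nearest IL-4 region lay 47 bp outside that window and the nearest untreated region 262 bp outside it.

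Tgfb3 (chromosome 12, 86056743 to 86079041) had 6 IL-4 regions and 2 untreated regions. Both untreated regions were overlapped. The stronger lay at the upper-coordinate end, 86079297 to 86079794 in the IL-4 library, reaching a fold of 4.00 and a pileup of 87, and 86079328 to 86079790 in the untreated library, reaching a fold of 3.15 and a pileup of 48. The other IL-4 regions had folds of 1.78 to 2.21. They included a region at the lower-coordinate end, 86055517 to 86055882 with a fold of 1.96, and 86062015 to 86062536, the strongest found in that library alone, with a fold of 2.21.

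The receptors had unlike patterns. Tgfbr1, the type I receptor kinase (chromosome 4, 47353222 to 47414926), carried the strongest region of all 10 genes, and almost nothing else. That region, over the start, ran from 47352604 to 47353456 in the IL-4 library, reaching a fold of 8.05, which ranked 1020 of its list, and from 47352658 to 47353397 in the untreated library, reaching a fold of 6.84, which ranked 776 of its list. The pileups were 168 in the IL-4 library and 101 in the untreated library. The region also lies inside the lncRNA gene Gm32435, which spans 47352314 to 47386146. A further region before the start was listed at a fold of 2.73 in the IL-4 library, with its summit at −1.5 kb, and at 2.15 in the untreated library, with its summit at −1.58 kb. The last, 47347117 to 47347375, was found in the IL-4 library alone at a fold of 2.49. Past the start region no region lay in the remaining 61.5 kb of the gene in either library, and a second RefSeq start at 47386216, whose window is the second of the Tgfbr1 sequences above, had none within 32510 bp in the IL-4 library or 32569 bp in the untreated library.

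Tgfbr2, the type II receptor without which alveolar macrophages fail to mature in mice (chromosome 9, 116087695 to 116175363), had regions spread over the gene and both flanks. There were 18 in the IL-4 library with a median fold of 2.94 and 11 in the untreated library with a median of 2.41, and 10 of each were overlapped. The region over the start was 116174614 to 116175641 in the IL-4 library (fold 3.32) and 116174406 to 116175507 in the untreated library (fold 3.08). In the IL-4 library it was not the strongest, since a region 2.96 kb before the start was listed at 3.62 there and at 2.56 in the untreated library. The region before the start lies inside the lncRNA gene Gm40582. In the untreated library a further region 2.04 kb before the start, 116177345 to 116177575, was found alone (fold 2.57). Past the far end the IL-4 library alone had 2 regions, at 116077446 to 116077799 (fold 3.26) and 116079148 to 116079486 (fold 3.62). At a −log10 q of at least 5, 13 IL-4 regions and 1 untreated region remained over Tgfbr2, a limit that does not cut both lists at the same fold. It kept 30.9% of the whole IL-4 list and 17.5% of the whole untreated list, a ratio of region numbers of 2.41.

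The receptor-activated SMADs also contrasted. Smad2 (chromosome 18, 76241090 to 76311748) resembled Tgfbr1, with a strong region at 1 end and an almost empty body. The end region was 1164 bp wide in the IL-4 library (76240882 to 76242045, fold 5.78, pileup 131) and 1168 bp in the untreated library (76240836 to 76242003, fold 5.44, pileup 90). Below the gene a region was listed at 3.67 in the IL-4 library (summit at −3.53 kb) and 3.06 in the untreated library (summit at −3.54 kb). A weak region at 76242185 to 76242423 followed the end region in the IL-4 library alone, with a fold of 2.21. Above the gene, a pair of overlapping regions had a fold of 2.25 in the IL-4 library and 1.94 in the untreated library. Inside it, 69.3 kb held no region in the IL-4 library, and 69.7 kb held none in the untreated library. Of the 4161 protein-coding genes of 60 kb or more, 6.58% had no IL-4 region farther than 1.5 kb from their ends and 10.8% no untreated region. Tgfbr1 and Smad2 were such genes in both libraries. The 60 kb and 1.5 kb limits were chosen after these genes had been seen.

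Smad3 (chromosome 9, 63646766 to 63757994) had the most regions and the largest excess in the IL-4 library, 31 against 8 in the untreated library, a ratio of 3.88 (1.78 to 8.43). The difference of 23 regions ranked 176 of 21883 protein-coding genes, and 5.90% of them had an excess of at least 10. That difference is a count not scaled for length, and the window of Smad3, 131 kb, was the longest of the 10. In regions per 10 kb of window, Smad3 lay at percentile 85.3 of protein-coding genes in the IL-4 library and 47.1 in the untreated library. The strongest shared region lay inside the gene, its summit at −41.7 kb from the upper-coordinate end where Smad3 starts, at 63716050 to 63716622 in the IL-4 library, reaching a fold of 4.12 and a pileup of 89, and at 63716023 to 63716571 in the untreated library, reaching a fold of 3.22 and a pileup of 47. Across the start, the IL-4 library had a weak region at 63757869 to 63758160 (fold 2.26, −log10 q of 4.47). The nearest untreated region to it was 11.3 kb away. The strongest Smad3 region of the IL-4 library alone, at 63642321 to 63642698 with a fold of 3.91, lay past the far end of the gene and inside the neighbouring gene Aagab. The untreated regions left a stretch of 51.6 kb of the gene empty, in which the IL-4 library had regions with folds of up to 2.67. The strongest untreated region alone, 63707646 to 63707866, had a fold of 1.94.

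Smad4, the common partner SMAD (chromosome 18, 73634790 to 73703791), had 11 IL-4 and 7 untreated regions, of which 5 in each library were overlapped. Its upper-coordinate end carried a region beginning at 73703601 in both libraries and ending at 73704246 in the IL-4 library (fold 5.40, pileup 90) and at 73704229 in the untreated library (fold 4.02, pileup 59). The lncRNA gene 4930578L24Rik, which begins at 73703926, lies under the same region. The remaining folds did not exceed 2.67 in the IL-4 library or 2.62 in the untreated library. Between 73689926 and 73691998 the IL-4 library had 4 narrow regions and the untreated library 1, at 73691064 to 73691273 with a fold of 2.48, which missed the nearest IL-4 region by 0.025 kb. The strongest of the IL-4 library alone was 73666385 to 73666844, with a fold of 2.43.

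Of the inhibitory SMADs, Smad6 (chromosome 9, 63953076 to 64022085) had 22 IL-4 and 8 untreated regions, a ratio of 2.75 (1.22 to 6.18). At its start the IL-4 library had 1 region of 1379 bp, 64021942 to 64023320, with a fold of 3.64. The untreated library had 2 regions in the same place, 64022043 to 64022519 (fold 3.07) and 64022645 to 64023293 (fold 3.62). The remaining IL-4 folds lay between 1.72 and 2.58, and 16 of the 22 regions were in that library alone. The strongest of these, 63978739 to 63978990, had a fold of 2.5. The remaining untreated folds were 1.74 to 2.15, and the single region alone had a fold of 1.88.

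Smad7 (chromosome 18, 75367365 to 75395935) had the densest regions of the 10 genes in both libraries. There were 15 in the IL-4 library, or 3.09 per 10 kb of window, and 10 in the untreated library, or 2.06 per 10 kb. The median protein-coding gene had 1.19 per 10 kb in the IL-4 library and 0.662 in the untreated library. Each library overlapped the other at 8 places. A wide region covered the lower-coordinate end, 75366341 to 75367722 in the IL-4 library (1382 bp, fold 2.94, pileup 60) and 75366501 to 75367796 in the untreated library (1296 bp, fold 2.90, pileup 49). The lncRNA gene Gm20544, whose span reaches to 75367088, lies in part under the same region. The strongest Smad7 region of the IL-4 library alone, 75392278 to 75392625, had a fold of 2.63, and that of the untreated library alone, 75378604 to 75378803, had 1.94. No Smad7 region reached a fold of 3 in either library.

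**Figure D3:**
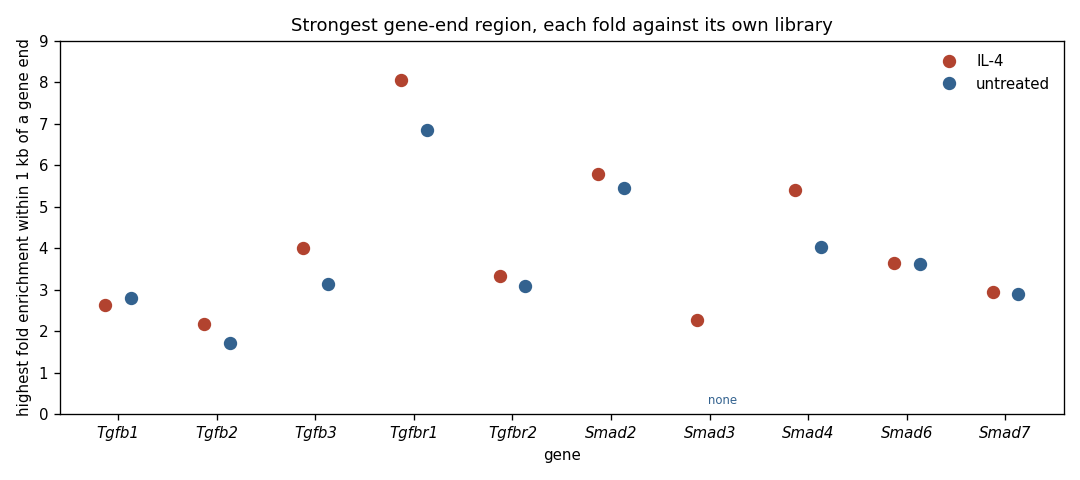
Highest fold enrichment of any region within 1 kb of either end of each gene (vertical axis, fold) for the 10 genes (horizontal axis), IL-4 at the left and untreated at the right of each pair, 1 library each, every fold against the background of its own library. Tgfbr1 is highest, at 8.05 in the IL-4 library and 6.84 in the untreated library, Tgfb2 is lowest, at 2.16 in the IL-4 library and 1.72 in the untreated library, and Smad3 has none in the untreated library.

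The strongest end regions fell into an order that was much alike in both libraries. In the IL-4 library Tgfbr1, Smad2, Smad4 and Tgfb3 led, with 8.05, 5.78, 5.40 and 4.00. In the untreated library Tgfbr1, Smad2 and Smad4 led, with 6.84, 5.44 and 4.02, followed by Smad6 with 3.62 and Tgfb3 with 3.15. With no replicates, the spread of such a fold is unknown, and neighbours in this order cannot be told apart. At a fold of at least 3, 6 of the 10 genes kept an end region in each library, and all protein-coding genes were not counted at that fold. At a −log10 q of at least 5, 8 of the 10 kept one in each library. That limit kept one at 51.7% of all protein-coding genes in the IL-4 library and 32.9% in the untreated library.

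Regions of 1 kb or more took a larger share over these genes than in the lists, while median widths were alike. They made up 9 of 141 (6.38%) in the IL-4 library, against 2.08% of its list and 2.51% in the windows of protein-coding genes. In the untreated library they made up 5 of 70 (7.14%), against 1.34% of its list and 1.63% in those windows. The median width was 334 bp over the 10 genes in the IL-4 library and 339 bp in the untreated library, against 327 bp over the whole IL-4 list and 300 bp over the whole untreated list. In the windows of protein-coding genes it was 338 bp in the IL-4 library and 309 bp in the untreated library. Of the 56 places where exactly 1 IL-4 region met exactly 1 untreated region, the IL-4 region was the wider in 36 (64.3%), as in 64.5% of such pairs over the whole lists and 68.2% in the windows of protein-coding genes. At Tgfbr2 it was wider in 8 of 10 pairs, with medians of 627 bp in the IL-4 library and 311 bp in the untreated library. At Tgfb2 it was wider in 4 of 9.

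At these 56 places the pileup was higher in the IL-4 library in 55, against 85.2% of pairs over the whole lists and 88.3% in the windows of protein-coding genes. The exception lay in Smad7, with 33 fragments in the IL-4 library and 38 in the untreated library. The pileup ratio exceeded 1.14, the ratio of the constant backgrounds, in 47 pairs (83.9%), against 67.6% over the whole lists and 73.4% in the windows of protein-coding genes. Its median was 1.45 over the 10 genes, 1.32 in the windows of protein-coding genes and 1.26 over the whole lists. The genes differed in it. All pairs exceeded 1.14 at 7 of the genes, among them Tgfb1 (ratios of 1.36 to 2.08) and Tgfbr2 (1.35 to 2.0). The constant background held at 54.2% of IL-4 and 68.7% of untreated regions of the whole lists. At Tgfb1 every local background was higher, at 21.5 to 44.7 fragments in the IL-4 library and 14.7 to 26.6 in the untreated library. The value 1.14 is therefore not the ratio of backgrounds at Tgfb1. At Tgfb2 4 of 9 did (1.06 to 1.35), at Smad7 5 of 8 (0.868 to 1.32) and at Smad4 4 of 5 (1.06 to 1.53). Pileups are not scaled for depth, and depth and any change of PHLPP1 occupancy cannot be told apart in a single pair.

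**Figure D4:**
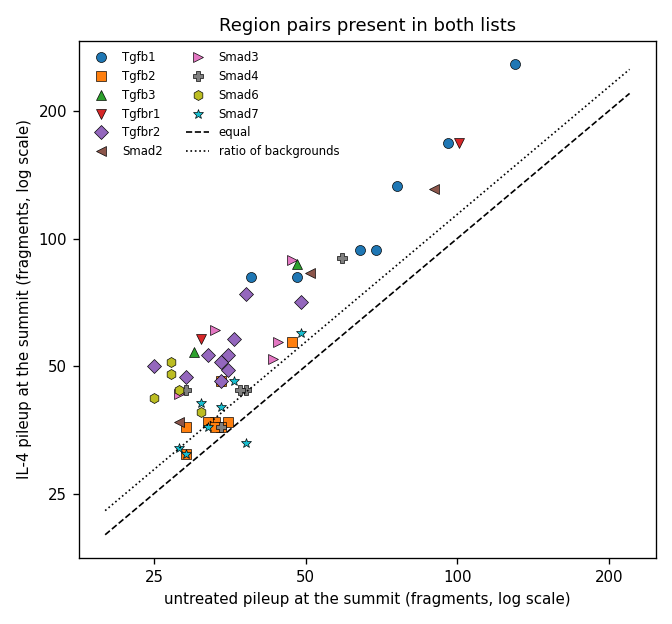
Pileup at the summit in the IL-4 library (vertical axis, fragments, log scale) against that in the untreated library (horizontal axis, fragments, log scale) for the 56 region pairs that match 1 to 1 over the 10 genes, 1 symbol per gene. The dashed line marks equal pileups and the dotted line the 1.14 ratio of the constant backgrounds; 55 pairs lie above the dashed line, and the Tgfb2 and Smad7 pairs have the lowest median ratios, at 1.12 and 1.16.

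Regions of 1 library alone were weaker than overlapped ones. In the IL-4 library the 82 regions alone had a median fold of 2.09 and a median width of 279 bp, and the 59 overlapped ones 2.49 and 430 bp. In the untreated library the 11 regions alone had a median fold of 1.94 and a width of 221 bp, and the 59 overlapped ones 2.28 and 367 bp. The whole lists showed the same order, with IL-4 medians of 2.08 alone and 2.37 overlapped and untreated medians of 2.08 alone and 2.28 overlapped. A fold of 3 or more was reached by 20 IL-4 regions (14.2%, against 12.9% of the list and 15.8% in the windows of protein-coding genes) and 12 untreated regions (17.1%, against 9.12% of the list and 11.9% in those windows). Of the 20 IL-4 regions, 17 were overlapped, against 86.8% of such regions in the whole list, and the other 3 were the Smad3 region inside Aagab and the 2 past the far end of Tgfbr2. All 12 untreated regions were overlapped, as were 99.0% of such regions in the whole list. Of the 82 IL-4 regions alone, 16 lay within 1 kb and 48 within 5 kb of an untreated region. All 11 untreated regions alone lay within 5 kb of an IL-4 region, the farthest at 2.95 kb. Such gaps were not counted over the whole lists or in the windows of protein-coding genes. Whether they were shorter at these genes than elsewhere was not tested.

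**Figure D5:**
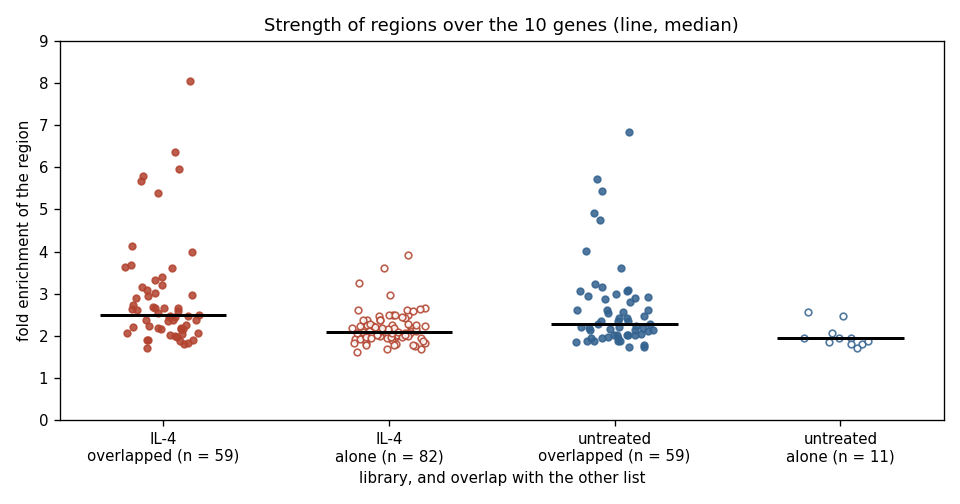
Fold enrichment of every region over the 10 genes (vertical axis) by library and by overlap with the other list (horizontal axis), points spread sideways at random for visibility and black lines at the medians. The IL-4 regions alone sit at a median of 2.09 with 3 points above 3, and the untreated regions alone at a median of 1.94 with a highest of 2.57.

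The 10 kb limit on the flanks cut through the data at these places. Just inside it were the IL-4 regions 9.90 kb from Tgfbr2 (fold 3.26) and 9.85 kb from Smad6 (fold 2.48), which both crossed the limit. Just outside were regions above Smad4, at 10.4 kb in both libraries, with folds of 2.55 in the IL-4 library and 2.95 in the untreated library, and an IL-4 region 10.7 kb from Smad6 (fold 1.76).

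The start windows of the 6 genes, 300 bases each in RefSeq (250 before the start and 50 after it), were searched on both strands for 11 motifs. These were the SMAD palindrome GTCTAGAC, the shorter SMAD letters CAGACA and GGCGCC, the AP-1 letters TGANTCA, the PU.1 letters GAGGAAGT, GGGCGG for Sp1, CCAAT for NF-Y, TGACGTCA for CRE, CACGTG for the E-box, and the longer spaced motifs of STAT6 and NRF1. No 2 of the matches in the printed runs overlapped. The SMAD palindrome lay across the start of Smad6, from base −4 to base 4 counted from the start, which has no base 0. It occurs in 70 of 32851 RefSeq start windows (0.213%), and in 0.226% of those touched by an IL-4 region. The Smad6 run shows it near its 3′ end.

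The Sp1 letters were found in the windows of Tgfb1 (6 times), Smad6 (4), Tgfbr1 (2) and Smad3 (2), and in 35.7% of all windows, 59.1% of those touched by an IL-4 region and 18.8% of the others. The NF-Y letters were found at the first start of Tgfbr1 and at the start of Tgfbr2, 2 times each, and once each in the windows of Tgfb2, Smad6 and the second Tgfbr1 start, against 37.4% of all windows. An Sp1 match of Tgfb1 and the NF-Y matches of Smad6 and the second Tgfbr1 start lay past the 3′ end of the printed runs. The letters GGCGCC were in the first Tgfbr1 window alone (11.9% of all windows). CAGACA and CACGTG were each found once in Tgfb2 (21.0% and 7.15% of all windows), and CAGACA once at the second Tgfbr1 start. AP-1, STAT6, PU.1, CRE and NRF1 letters were in none of the 7 windows, against 7.81%, 6.95%, 3.20%, 1.79% and 6.23% of all windows. The 5 windows touched by a region in the IL-4 library had 59.0 to 77.0% G and C, and the 2 touched by none had 54.3% and 52.0%. Over all RefSeq start windows, 41.8% were touched in the IL-4 library and 32.9% in the untreated library. Like that of Smad3, 10.7% were touched by IL-4 regions alone. Matched letters are descriptions and not binding sites.

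A list of 64 other genes of the pathway gave the wider picture. Regions lay within 1 kb of either end at 56 of them in the IL-4 library (87.5%, 76.8 to 94.4), against 70.4% of all protein-coding genes. It did so at 52 in the untreated library (81.3%, 69.5 to 89.9), against 57.5%. Both libraries marked 50 (78.1%, against 54.5% of all protein-coding genes) and neither marked 6. The IL-4 library alone marked 6 (9.38%, below the 16.0% of all genes), and the untreated library alone marked 2 (3.13%, against 3.06% of all genes). At a −log10 q of at least 5, 48 of the 64 were marked in the IL-4 library, against 51.7% of all genes, and 32 in the untreated library, against 32.9%. The 8 genes grouped as ubiquitin ligases, phosphatases and related regulators of the pathway were marked in both libraries throughout. Among them were Smurf1 and Smurf2, which mark receptors and SMADs for breakdown. The 5 genes of the branch that runs without SMADs were also all marked in both. Of 12 genes that TGF-beta is known to induce or repress, such as Id1, Id2 and Id3, inhibitors of basic helix-loop-helix transcription factors, 10 were marked in both. All these counts stand beside the 54.5% of all genes marked in both.

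Among these genes the highest end folds were those of Rhoa, a small GTPase of the cytoskeleton, with 11.3 in the IL-4 library and 8.31 in the untreated library, at an end shared with Tcta, and of Ski, a repressor of SMAD-driven transcription, with 8.71 in the IL-4 library and 7.67 in the untreated library. Next came Map3k7, the kinase TAK1, in the IL-4 library (8.06, against 5.03 untreated) and the transcription factor Sp1 in the untreated library (6.59 in the IL-4 library and 7.16 untreated). Among the 6 genes marked by IL-4 regions alone were Tgfbr3, the co-receptor betaglycan (fold 3.0), Smad5, a SMAD of the bone morphogenetic protein branch (2.91), and Runx3, a transcription factor that works with SMADs (2.34). The nearest untreated regions were 1.47 kb from an end of Tgfbr3, 2.19 kb from Smad5 and 1.46 kb from Runx3. The genes marked by untreated regions alone, a share near that of all genes, were Smad9, a SMAD of the bone morphogenetic protein branch (2.11), and Bmpr1b, a type I receptor of that branch (2.15). The nearest IL-4 regions were 2.25 kb from an end of Smad9 and 4.05 kb from Bmpr1b.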

How the data were processed

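PHLPP1 CUT&Tag was profiled in 1 IL-4 and 1 untreated library of mouse alveolar macrophages. Per the submitters' processing notes, Bowtie 0.12.8, MACS2 2.2.7.1, DiffBind and mm10 were used, in roles and an order not given in the sources used here, nor are settings, filters or a control library. The authors deposited 1 list of regions per library, called per library. The fold enrichment, a ratio of summit pileup to local background with 1 added to both, the −log10 p, the −log10 q, the integer score and the start, end and summit positions are the authors' own values and were used as deposited. The deposited score is the −log10 p times 10 without its decimals, within 1.

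Pileup and background were solved from fold and −log10 p, with fold taken as the pileup plus 1 over the background plus 1, and the pileups were whole within 0.05 for 100% of regions. Depth in reads is unknown. Genes came from RefSeq (GRCm38.p6, the assembly behind mm10), which gave spans for all 10 genes; exon, intron and UTR positions were not analysed here. Strand was known for the 6 genes with a start-site sequence. Ranks count from the highest fold. Intervals are exact Clopper-Pearson 95% for shares and Poisson on the log scale for ratios, and cover counting error only. No test between groups was possible. The overlap functions were tested on simulated data. Motifs were sought at start sites only, since no genome was used here.

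Members and gene lists were chosen with earlier results of these data known. All 10 genes were named. For each, regions at an end, the highest fold of each library and the highest found in 1 library alone were named. Of the other pathway genes, up to 4 marked in 1 library alone by −log10 q and the 3 of highest end fold per library were named; 1 gene this rule names, marked by IL-4 regions alone, is not reported here, which leaves 3 of that kind. Other places named were chosen after their values were seen. Software versions were Python 3.11.15, numpy 2.4.6, scipy 1.17.1, pandas 2.3.3 and matplotlib 3.10.9.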

Additional observations from a re-analysis of the deposited data

How the results depend on the processing

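No paired analysis was possible because each group held 1 library. Under the alternative settings 51 values stayed within the interval of the reported one, or within 1.5 times for counts, and 19 moved. At a −log10 q of at least 5, 53 IL-4 and 19 untreated regions remained, a ratio of 2.79 against 2.41 over the whole lists at that limit; 100% of those untreated regions were overlapped, and median widths were 430 bp in the IL-4 library and 629 bp in the untreated library. At a fold of at least 3, 20 IL-4 regions (55% overlapped, median width 617 bp) and 12 untreated regions (100% overlapped, median width 667.5 bp) remained. Their ratio was 1.67, against 1.94 over the whole lists at that limit. At that fold 6 genes had an IL-4 region at an end, with no count made over all protein-coding genes. Here the limit was applied to both lists, which is why 55% differs from the 17 of 20 overlapped by any untreated region. With lists cut to equal length by −log10 p, the ratio was 1.57 and 72.9% of untreated regions were overlapped. At that setting the whole lists hold equal numbers by the cut itself, so 1.57 does not stand beside the list ratios given earlier. Requiring at least 50% of each region in common gave 28.4% of IL-4 and 57.1% of untreated regions. Allowing a gap of 1 kb gave 53.2% of IL-4 and 92.9% of untreated regions. No overlap share over all regions was counted under either rule, at equal length, or with a limit on both lists. Whether the overlap shares at those settings are particular to these genes was therefore not tested. Leaving out Smad3 and Smad6, an alternative added after seeing the data, gave a ratio of 1.63 and an overlap of 52.3% of IL-4 regions. Flanks of 0, 5 or 25 kb gave ratios of 2.23, 1.95 and 1.79. The number of IL-4 regions exceeded that of untreated regions under all these settings. With 1 library per group and unknown depth, an unlisted region may have been present below the limit of detection.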

Other observations

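The stretch between Smad3 and Smad6 was dense in IL-4 regions as well. The 2 genes lie 195 kb apart on chromosome 9, with 5 RefSeq lncRNA genes and pseudogenes between them and no protein-coding gene. Between their 10 kb windows there were 44 regions in the IL-4 library and 14 in the untreated library, a ratio of 3.14 (95% interval 1.72 to 5.73, counting error only). The IL-4 region 63942772 to 63943224, which crossed the limit of the Smad6 window, is in this count and in that of Smad6. The 2 genes themselves gave 3.31 (1.89 to 5.79), and chromosome 9 as a whole gave 1.51 (1.47 to 1.55) from 13414 IL-4 and 8898 untreated regions. The excess at the 2 genes was thus not bounded by the genes. The stretch was looked at after the values of both genes had been seen. On chromosome 18, which holds Smad2, Smad4 and Smad7, the ratio was 1.25 (1.21 to 1.29).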
